A study of Mus musculus with 23 samples.

Results

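Jejunal transcript levels were compared between challenged and unchallenged Cpa3Cre/+ mice, a genotype labelled mast cell-deficient. The comparison used 11 of the 23 RNA sequencing libraries of the study, chosen by their genotype and treatment labels: 7 challenged and 4 unchallenged. The unchallenged libraries were 2 naive (1 female, 1 male) and 2 immunized (1 female, 1 male). Immunized mice had received 25 µg ovalbumin and 2 mg alum by the intraperitoneal route on days 0 and 14. The challenged libraries came from mice immunized in the same way that were offered, from day 20, a choice of plain water or water containing 20% egg white and 8% sugar. They were taken after 1 day (1 female, 1 male), 3 days (1 female, 1 male) or 5 days (3 females) of this choice. All 11 libraries carried the Cpa3Cre/+ genotype, and the 12 remaining libraries of the study came from Cpa3+/+ mice. Strain, age and the volumes drunk are not given in the sources used here. Immunization differs within the unchallenged class, so the main comparison mixes immunization with challenge. Egg white and sugar were always given together, so the effects of these 2 cannot be told apart. In whole tissue, a change in the number of cells of a type and a change in RNA per cell cannot be told apart either.

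As background, mast cells are long-lived tissue cells that are loaded with proteases and carry the high-affinity IgE receptor. Intraepithelial mucosal mast cells of the mouse gut express the chymases Mcpt1 and Mcpt2, while connective tissue mast cells express Mcpt4, Cma1 and carboxypeptidase A3. In a type 2 immune response of the small intestine, cytokines such as interleukin 13 act on tuft, goblet and Paneth cells, and the epithelium makes antimicrobial RNases, resistin-like proteins and gasdermins. The Cpa3Cre allele carries Cre recombinase in the Cpa3 gene, and loss of mast cells in this line is accompanied by fewer basophils. The question here was which transcripts still differ after oral challenge when mast cells are labelled as missing.

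Total counts of the 11 libraries ran from 7545950 to 19342046. Expression levels are given as CPM, the read count relative to the library total, scaled by TMM factors over these libraries. Labelled sex was matched by the summed level of 4 Y-linked genes, at 113 to 178 CPM in the male and 0 to 8.27 CPM in the female libraries. Xist was at 1.01 to 39.1 CPM in the male and 132 to 984 CPM in the female libraries. Both measures were scaled with factors over all 23 libraries. The highest Y-linked sums in female libraries were 8.27 CPM in day 5 replicate 3 and 7.04 CPM in immunized replicate 2. Where these counts and the Xist counts of male libraries came from was not tested. Their bearing on the low levels of mast cell transcripts was not tested either. Naive replicate 1 stood apart from the others: it had the lowest total count, a position of -103 on the first principal component (41.2% of the variance), and a summed level of 22 absorptive enterocyte genes of 13180 CPM against 82580 to 100300 CPM in the other unchallenged libraries. Its 19 smooth muscle genes summed to 12140 CPM against 2002 to 3655 CPM. Day 5 replicate 3 lay at the other end of that component, at 69.4, with an enterocyte sum of 122900 CPM. Results are therefore given with and without naive replicate 1.

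The mast cell chymase transcripts Mcpt1, Mcpt2 and Mcpt4 and a few genes for secreted products were higher in most or all challenged libraries, but no gene passed the edgeR test across all genes. All 7 challenged libraries lay above all 4 unchallenged ones for Mcpt1, Mcpt4, Ang4 and Ccl8, and 6 of 7 did for Mcpt2 and Retnla. With edgeR's quasi-likelihood test, 0 of 15754 genes tested had an adjusted p under 0.05 in either direction (0% called), and the smallest edgeR adjusted p was 0.675, for Mcpt1. At an unadjusted p under 0.05, 133 genes were higher (0.844%) and 121 lower (0.768%). DESeq2 called 3 genes higher (0.019%) and 0 lower, namely Mcpt1, Mcpt2 and Ang4, with DESeq2 adjusted p-values of 2.84e-06, 3.03e-04 and 0.0118. In 30 genes (0.19%) all 7 challenged libraries lay above all 4 unchallenged ones, and in 11 (0.0698%) all lay below. Without naive replicate 1, edgeR again called 0 of 15870 genes, while unadjusted p-values under 0.05 numbered 553 higher (3.48%) and 572 lower (3.6%). In that set of 10 libraries 156 genes (0.983%) lay wholly above and 170 (1.07%) wholly below. DESeq2 then called Mcpt1 and Mcpt2 (0.0126%), with DESeq2 adjusted p-values of 6.39e-07 and 2.4e-06, and the value for Ang4 was 0.345.

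**Figure D1:**
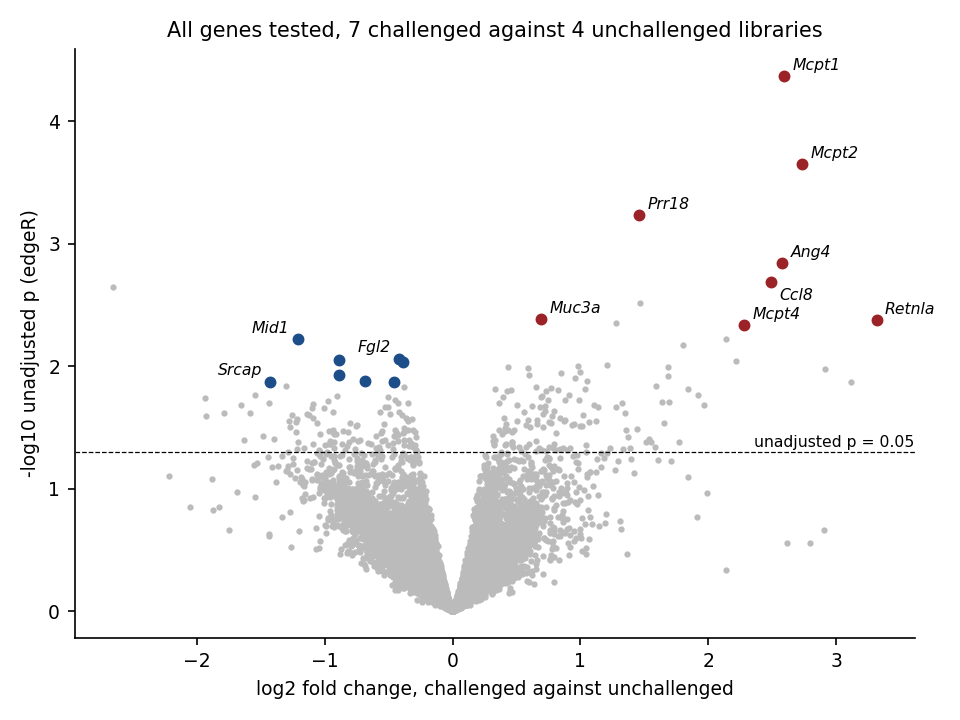
Each point is 1 of the 15754 genes tested, with its log2 fold change (challenged against unchallenged Cpa3Cre/+ jejunum) on the x axis and the negative log10 of the unadjusted edgeR p on the y axis. The genes with the smallest p in each direction under the naming rule are coloured, red for higher and blue for lower, and the dashed line marks an unadjusted p of 0.05. Mcpt1 and Mcpt2 lie highest, at log2 fold changes of 2.59 and 2.73.

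Mcpt1 (ENSMUSG00000022227, chromosome 14, 56017971 to 56020384, plus strand, GRCm38) encodes a chymase secreted by mucosal mast cells. It was at 9.77 and 6.25 CPM in the naive and 4.4 and 5.2 CPM in the immunized libraries, and ran from 12.5 through a median of 41 to 68 CPM in the 7 challenged libraries. All 7 lay above every unchallenged value. The means were 6.4 ± 2.37 CPM (SD, n = 4) and 40.1 ± 17.8 CPM (SD, n = 7), a log2 fold change of 2.59 ± 0.42 (SE), or 6.03-fold, with an edgeR adjusted p of 0.675. The days did not overlap: 12.5 and 30.1 CPM on day 1, 31.6 and 41 CPM on day 3, and 44.6, 68 and 53 CPM on day 5. Leaving out day 1 replicate 1, the challenged library with the lowest value, gave an edgeR adjusted p of 0.0169 at a log2 fold change of 2.73. Of 11 fits that each left out 1 library, only this 1 held a called gene. Without naive replicate 1 the log2 fold change was 2.87 ± 0.48 (edgeR adjusted p = 0.677).

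Mcpt2 (ENSMUSG00000022226, chromosome 14, 56042041 to 56044642, plus strand), which encodes the neighbouring mucosal chymase, was at 4.6 and 1.69 CPM in naive and 1.1 and 1.76 CPM in immunized libraries. Challenged libraries ran from 4.55 through a median of 16 to 31.2 CPM. Of these, 6 of 7 lay above all unchallenged libraries, and day 1 replicate 1 lay just below naive replicate 1. The log2 fold change was 2.73 ± 0.53 (6.65-fold, edgeR adjusted p = 1), and 3.26 ± 0.58 without naive replicate 1. Mcpt4 (ENSMUSG00000061068, chromosome 14, 56059629 to 56062313, minus strand) is the chymase of connective tissue mast cells. It was sparse, with 5, 3, 0 and 2 counts in the unchallenged libraries and 9 to 27 counts in the challenged ones, which is 0 to 0.47 CPM against 0.56 to 2.5 CPM. The groups did not overlap, and the highest values, 1.49, 1.91 and 2.5 CPM, were the 3 day 5 libraries.

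Mcpt1 and Mcpt4 lie on opposite strands of the same protease cluster, and their upstream sequences are shown because both genes separated the groups completely. RefSeq's GRCm38.p6 promoter table gave the 250 bases before the annotated start, 5′ to 3′ on the gene's strand, at chr14:56017714-56017963 for Mcpt1 and chr14:56062311-56062560 for Mcpt4. Capitals mark a GATA motif (the word AGATAA with its variant AGATAG, and the word TGATAA with its variant TGATAG, searched on both strands). 
Mcpt1: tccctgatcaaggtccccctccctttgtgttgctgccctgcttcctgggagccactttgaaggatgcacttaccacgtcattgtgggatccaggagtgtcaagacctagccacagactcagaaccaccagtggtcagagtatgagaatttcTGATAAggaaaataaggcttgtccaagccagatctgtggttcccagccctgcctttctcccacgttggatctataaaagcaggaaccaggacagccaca
Mcpt4: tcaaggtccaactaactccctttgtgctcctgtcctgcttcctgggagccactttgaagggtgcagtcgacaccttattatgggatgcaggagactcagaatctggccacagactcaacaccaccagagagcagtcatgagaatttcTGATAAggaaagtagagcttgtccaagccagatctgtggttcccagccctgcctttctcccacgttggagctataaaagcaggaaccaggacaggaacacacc
The 2 stretches were identical at 207 of 254 aligned positions (81.5%), and the same word, TGATAA, stood 99 bases before the start in Mcpt1 and 103 bases before it in Mcpt4. The word TATAAA, searched on the gene's strand, followed at 28 and 32 bases before the start. The corresponding stretch of Cpa3 held AGATAA at 46 and TATAAA at 31 bases before its start, and that of Mcpt9 held neither. No stretch was available for Mcpt2. Outside the mast cell genes, a GATA word also stood in the stretches of Ang4, its paralogue Ang5 and Ccl8. TATAAA stood in those of Ccl8 and Retnla, while those of Rnase2a, Pnliprp2 and Hspa1b held neither word. A GATA word was present in 26.5% of all 32851 promoters of the table over the same length, and TATAAA in 7.59%. The Mcpt1 and Mcpt4 transcripts were identical at 75% of aligned positions, with a longest shared run of 46 bases. Those of Mcpt1 and Mcpt2 were identical at 70.7%, with a run of 49 bases, so some reads could be shared within the family.

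**Figure D2:**
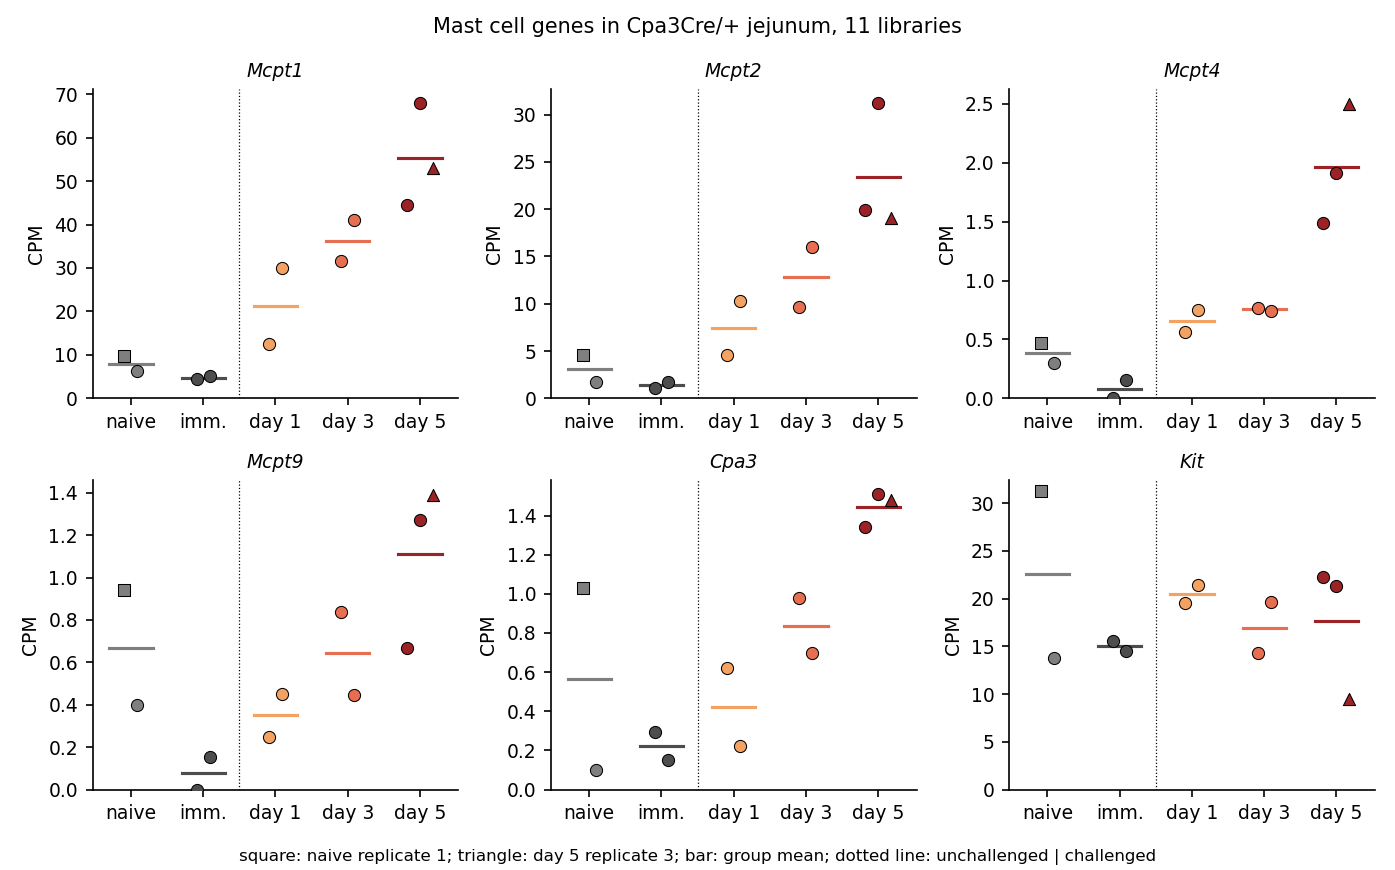
CPM (y axis, starting at 0) of 6 mast cell genes in the 11 Cpa3Cre/+ libraries by state (x axis; imm., immunized). Each point is a library, bars are group means, the square is naive replicate 1 and the triangle day 5 replicate 3. Mcpt1 and Mcpt4 separate the groups, Cpa3, Mcpt9 and Kit overlap between the classes.

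Other mast cell transcripts followed only in part. Of 10 listed proteases, 6 were tested, all 6 had positive log2 fold changes, and 3 had an unadjusted p under 0.05 against 0.844% of all genes, with a median of 1.68 against -0.00737 over all genes. Their summed level was 15.6 to 22 CPM in unchallenged and 27.5 to 111 CPM in challenged libraries. Cpa3 itself, the gene that carries Cre, was at 1.03 and 0.0992 CPM in naive and 0.293 and 0.153 CPM in immunized libraries, and ran from 0.225 through 0.977 to 1.51 CPM after challenge. All 3 day 5 libraries (1.34, 1.51 and 1.48 CPM) lay above every unchallenged one, while the other 4 did not. The log2 fold change was 1.08 ± 0.55 (edgeR adjusted p = 1). Without naive replicate 1 it was 1.91 ± 0.64, and without immunized replicate 2 it was 0.57. Mcpt9, another chymase of the cluster, overlapped as well, at 0 to 0.94 CPM against 0.249 to 1.39 CPM (log2 0.90 ± 0.69, and 1.80 without naive replicate 1).

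Fcer1a, the ligand-binding chain of the IgE receptor, held 7 counts over the 4 unchallenged and 57 over the 7 challenged libraries, and had too few counts to be tested with all libraries. Its range was 0 to 0.397 CPM against 0.279 to 0.874 CPM, with 5 of 7 challenged libraries above all unchallenged ones. Cma1, the connective tissue chymase, stayed at 0 to 0.752 CPM against 0.0497 to 0.447 CPM, with the highest value in naive replicate 1. Of the 16 other mast cell genes listed, 12 were tested, 0 of them had an unadjusted p under 0.05 in either direction, and their median was 0.16. When naive replicate 1 was left out, 13 were tested, 11 were on the positive side, 2 were higher at an unadjusted p under 0.05 (3.48% of all genes) and the median was 0.39. Kit, the stem cell factor receptor of mast cells and interstitial cells of Cajal, was at 31.3 and 13.8 CPM in naive and 15.6 and 14.5 CPM in immunized libraries. It ran from 9.45 through 19.6 to 22.3 CPM after challenge, with no separation. Its log2 fold change of -0.05 ± 0.28 became 0.39 without naive replicate 1. The 5 basophil genes listed had too few counts to be tested in all 11 libraries. They summed to 0.0733 to 1.03 CPM in unchallenged and 0.747 to 1.94 CPM in challenged libraries. Without naive replicate 1, 1 of them was tested, at a log2 fold change of 2.04. It was higher at an unadjusted p under 0.05 (3.48% of all genes).

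Ang4 (ENSMUSG00000060615, chromosome 14, 51763878 to 51773590, minus strand) encodes an antimicrobial RNase of Paneth and goblet cells. It was at 85.4 and 59 CPM in naive and 67.3 and 60.4 CPM in immunized libraries, and ran from 89 through 396 to 1080 CPM after challenge. All 7 challenged libraries lay above the unchallenged range, but the lowest of them, day 5 replicate 3, did so by a small margin, next to 1080 and 705 CPM in the other 2 day 5 libraries. The log2 fold change was 2.58 ± 0.63 (5.98-fold, edgeR adjusted p = 1), and 2.65 ± 0.75 without naive replicate 1. Ang5, a paralogue on the same chromosome that was picked after its values were seen, was at 0.366 to 0.846 CPM in unchallenged libraries and at 0.371 to 6.36 CPM after challenge. There 6 of 7 were above all unchallenged libraries, with day 5 replicate 3 again the exception (log2 2.22 ± 0.71, edgeR adjusted p = 1).

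The upstream sequences of the Ang4 and Ang5 genes are shown because day 5 replicate 3 was the lowest challenged library for both paralogues. 
Ang4: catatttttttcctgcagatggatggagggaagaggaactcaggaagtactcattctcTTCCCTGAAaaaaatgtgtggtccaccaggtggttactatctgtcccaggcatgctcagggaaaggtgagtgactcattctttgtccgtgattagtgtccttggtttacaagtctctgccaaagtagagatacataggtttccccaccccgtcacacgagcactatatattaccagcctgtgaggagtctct
Ang5: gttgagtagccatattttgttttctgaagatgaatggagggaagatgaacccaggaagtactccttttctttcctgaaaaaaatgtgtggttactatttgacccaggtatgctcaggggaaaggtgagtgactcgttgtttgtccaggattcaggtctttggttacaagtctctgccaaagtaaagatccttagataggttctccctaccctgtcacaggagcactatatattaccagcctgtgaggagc
These are the 250 bases before the start at chr14:51773591-51773840 (Ang4, minus strand) and chr14:43956819-43957068 (Ang5, plus strand), from the same RefSeq table on GRCm38.p6. Capitals mark a STAT motif (TTCNNNGAA, both strands, which is its own reverse complement), found in 7.02% of all promoters of the table. The 2 stretches were identical at 208 of 267 aligned positions (77.9%). The match TTCCCTGAA lies 192 bases before the start of Ang4 and has no match in the Ang5 window. With a longest identical run of 79 bases between the 2 transcripts, reads may be shared between them.

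Among 16 Paneth cell genes listed, 14 were tested, 11 had positive log2 fold changes and 2 had an unadjusted p under 0.05 (0.844% of all genes), both higher: Ang4 and the defensin Defa30. Defa30 was at 863, 562, 506 and 474 CPM in unchallenged libraries and ran from 487 through 950 to 1540 CPM after challenge, with 4 of 7 above the unchallenged range (log2 0.78 ± 0.35). Without naive replicate 1, 6 of the 14 had an unadjusted p under 0.05, all higher (3.48% of all genes), and the median moved from 0.46 to 0.80. They included the matrix metalloproteinase Mmp7, which processes defensins (log2 0.79 and then 1.18), and the lectin Itln1 (0.76 and then 1.10). The defensin genes are a family of near-identical copies, so reads may be split among them. The summed level of the Paneth genes was 15760 CPM in naive replicate 1, 7000 to 10210 CPM in the other unchallenged libraries and 6591 to 21470 CPM after challenge. The lowest challenged library was again day 5 replicate 3.

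Among 14 goblet cell genes tested, 2 had an unadjusted p under 0.05, both higher (0.844% of all genes). They were Spink4, a secreted inhibitor-like peptide (log2 0.66 ± 0.27), and Spdef, a transcription factor of goblet and Paneth cell maturation (log2 0.48 ± 0.20). Muc2, the main gel-forming mucin, was at a log2 fold change of 0.42. With factors over all 23 libraries, it was at 403 CPM in naive replicate 1 and 710 to 890 CPM in the other unchallenged libraries. Those others lay within its challenged range of 707 to 1040 CPM. The goblet median was 0.12, with 8 of 14 members positive. Without naive replicate 1 it was -0.11, with 6 of 14 positive. In that set 1 member was higher and 1 lower at an unadjusted p under 0.05 (3.48% and 3.6% of all genes). Muc3a, a membrane mucin gene, was at 32.7 and 34.4 CPM in naive and 36.9 and 23.1 CPM in immunized libraries, and ran from 30.8 through 50.2 to 66.1 CPM. There 6 of 7 challenged libraries lay above the unchallenged range (log2 0.69 ± 0.20, edgeR adjusted p = 1). Reg4, an epithelial secreted lectin, was at 86.8 to 125 CPM against 89.5 to 378 CPM, with 5 of 7 above (log2 0.95 ± 0.39).

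**Figure D3:**
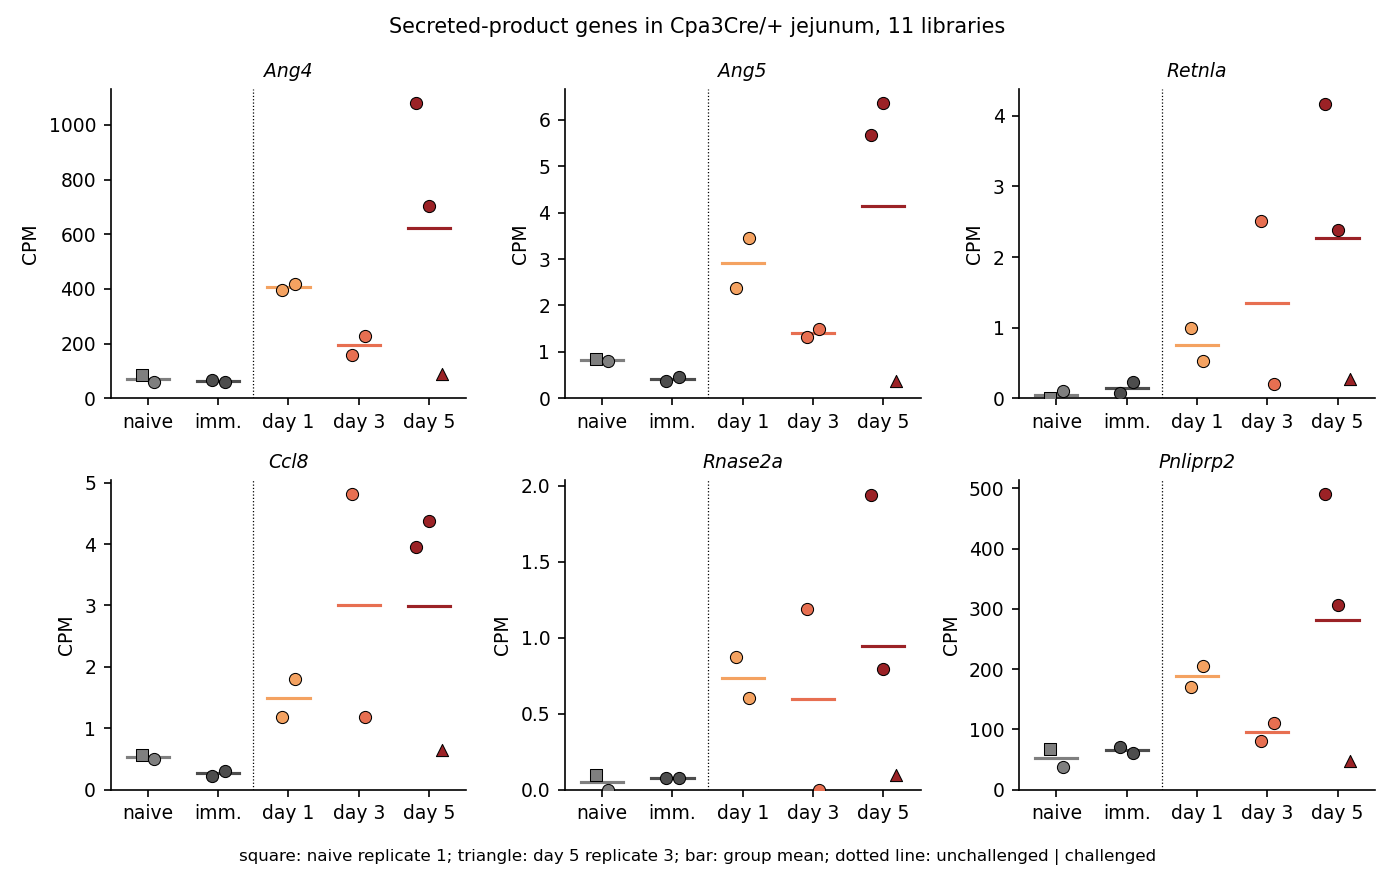
CPM (y axis, starting at 0) of 6 genes for secreted products in the 11 Cpa3Cre/+ libraries by state (x axis; imm., immunized), drawn as in the plot of mast cell genes. In all 6 panels day 5 replicate 3 (triangle) sits far below the other 2 day 5 libraries, as for Ang4 at 89 against 1080 and 705 CPM.

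Several markers of a type 2 response had few counts. Ccl8, a chemokine for eosinophils and Th2 cells (chromosome 11), was at 0.564, 0.496, 0.22 and 0.306 CPM in unchallenged libraries and ran from 0.649 through 1.8 to 4.81 CPM after challenge. The groups did not overlap (log2 2.49 ± 0.64, 5.62-fold, edgeR adjusted p = 1). Retnla, a resistin-like product of alternatively activated macrophages and epithelium, held 0, 1, 1 and 3 counts in the unchallenged libraries and 16, 7, 36, 4, 56, 30 and 3 counts in the challenged ones. Scaled to depth, 6 of 7 challenged libraries lay above all unchallenged ones, up to 4.17 CPM. Rnase2a, an eosinophil-associated RNase chosen after its values were seen, held 3 counts over 4 libraries and 76 over 7. Of these 7, 5 lay above the unchallenged range, day 3 replicate 2 held 0 counts and day 5 replicate 3 held 1. Il13 held 0 counts in all 4 unchallenged libraries and 17 in total in 5 of 7 challenged libraries, with 8, 4 and 2 on day 5. It was too sparse to be tested.

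The list of type 2 cytokines and alarmins had 11 tested members and a median of 0.00. Of these, Ccl8 was higher at an unadjusted p under 0.05 (0.844% of all genes). Eosinophil and neutrophil genes had 4 tested members, all with positive log2 fold changes (median 0.57) and 0 with an unadjusted p under 0.05. The epithelial genes of a type 2 response had 10 tested members and a median of 2.06. Of these, 2 were higher at an unadjusted p under 0.05, Ang4 and Rnase1 (0.844% of all genes). That median was 0.78 without naive replicate 1, over 11 members, 7 of them on the positive side. There Ang4 was higher (3.48% of all genes) and Fcgbp and Cdhr5 lower (3.6%) at an unadjusted p under 0.05. Among them, Gsdmc2, an epithelial gasdermin, was at 1.22 and 64.1 CPM in naive and 0.293 and 5.12 CPM in immunized libraries, and ran from 19.9 through 59.9 to 516 CPM. Naive replicate 2 alone overlapped the challenged range, and the 2 highest values, 391 and 516 CPM, were on day 5. The log2 fold change of 2.90 ± 2.22 was 6.09 without naive replicate 2, 1.03 without naive replicate 1 and 1.07 without immunized replicate 2. Gsdmc4 (62.4 CPM) and Pla2g4c, a phospholipase A2 (147 CPM), were high in that same naive library, and Pla2g4c reached 1050 and 970 CPM in 2 day 5 libraries. Gsdmc2 and Gsdmc4 share runs of up to 171 bases, so reads may be shared.

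Most tuft cell genes lay on the positive side. Of 13 tested, 11 had positive log2 fold changes, 3 were higher at an unadjusted p under 0.05 (0.844% of all genes) and the median was 0.51, or 0.44 with 0 such members without naive replicate 1. Alox5ap, which presents arachidonic acid to 5-lipoxygenase, was at 3.29, 3.57, 3.96 and 6.19 CPM in unchallenged libraries and 4.67 to 8.85 CPM after challenge, with 5 of 7 above (log2 0.71 ± 0.28). Avil, an actin-binding protein of the tuft, was at 5.07 to 9.25 CPM and 6.54 to 15.6 CPM, and its 3 highest values, 15.6, 14.2 and 14.8 CPM, were the day 5 libraries (log2 0.65 ± 0.28). The third was Lrmp, at 0.51 ± 0.20. Pou2f3, the transcription factor that specifies tuft cells, had a log2 fold change of 0.82, and Dclk1 of 0.03.

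Genes for secreted lipid-digesting proteins stood out among the digestive genes. Pnliprp2, a pancreatic-type lipase that is also made by the intestinal epithelium, was at 67.7, 36.9, 69.9 and 61.4 CPM in unchallenged libraries and ran from 47.5 through 170 to 491 CPM, with 6 of 7 above (log2 1.68 ± 0.57). Its relative Pnliprp1 was at 0.794 to 2.82 CPM against 1.85 to 16.6 CPM (log2 1.64 ± 0.61), and colipase, Clps, at 47.6 to 57.9 CPM against 51.4 to 117 CPM (log2 0.65 ± 0.23). In each of the 3 genes the lowest challenged value was day 5 replicate 3. Pancreatic acinar genes as a list summed to 418 to 1006 CPM in unchallenged and 251 to 1139 CPM in challenged libraries, without separation. Most of that sum was 1 gene, Reg1, so the sum says little about the other members. With factors over all 23 libraries, Reg1 was at 353 to 924 CPM in unchallenged and 179 to 1080 CPM in challenged libraries. Of the 5 tested members of the list, 4 were on the positive side, with a median of 0.52 (0.50 without naive replicate 1). Clps and Pnliprp1, 2 of these members, were higher at an unadjusted p under 0.05 (0.844% of all genes). A part of pancreatic tissue in these values was not tested. Of 23 tested genes of fat absorption, 2 were higher at an unadjusted p under 0.05, Pnliprp2 and Clps (0.844% of all genes), with a median of 0.03. Without naive replicate 1 the median was -0.41, 20 of 23 were negative and 2 were higher at that threshold (3.48% of all genes).

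Stress and hormone-responsive genes differed in how far they depended on naive replicate 1. Of 20 heat shock chaperones tested, 19 had positive log2 fold changes and 4 were higher at an unadjusted p under 0.05 (0.844% of all genes), with a median of 0.32. Leaving out naive replicate 1, 18 were positive and 2 were higher at that threshold (3.48% of all genes), with a median of 0.35. Hspa1b, an inducible Hsp70, was at 2.44, 5.95, 1.69 and 2.14 CPM in unchallenged libraries and 2.22 to 26.1 CPM after challenge, with 4 of 7 above (log2 1.92 ± 0.70). The near-identical Hspa1a (runs of up to 638 shared bases) had 1.55 ± 0.68, and the cochaperone Dnajb1 0.39 ± 0.16. Of 21 endoplasmic reticulum stress genes, 19 were positive, with a median of 0.26. Of these 21, 2 were higher at an unadjusted p under 0.05 (0.844% of all genes), Creld2 (log2 0.42 ± 0.15) and Sdf2l1 (0.40 ± 0.16). In the 10 libraries other than naive replicate 1, 14 of the 21 were positive and the median was 0.11. Creld2 alone was then higher at that threshold (3.48% of all genes). Of 18 genes induced by glucocorticoids, 3 had an unadjusted p under 0.05, all higher (0.844% of all genes): Tsc22d3 (log2 0.59 ± 0.19), Sgk1 (1.07 ± 0.43) and Angptl4 (0.70 ± 0.32). In that list 16 of 18 were positive (median 0.07), against 10 of 18 without naive replicate 1 (median 0.08). There Tsc22d3 and Ddit4 were higher at that threshold (3.48% of all genes). Fkbp5, a co-chaperone of the glucocorticoid receptor, was at 9.45 to 14.1 CPM in unchallenged libraries and at 139 CPM in day 3 replicate 1, next to 13.2 to 29.3 CPM in the other 6 challenged libraries. Its log2 fold change of 1.39 ± 0.66 was 0.67 without day 3 replicate 1.

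Lower genes had smaller differences. Those given under the naming rule were Mid1, Fgl2, Nptx1, Tshz1, Lrrc75b, Srcap and Tnrc6c, with log2 fold changes from -0.39 to -1.43, each at an edgeR adjusted p of 1. Fgl2, a fibrinogen-like protein with immune-suppressive activity when secreted by regulatory T cells, was at 101, 98.9, 108 and 97.3 CPM in unchallenged libraries and ran from 64.7 through 80.3 to 88.5 CPM. The groups did not overlap, and the spread in each was narrow (log2 -0.42 ± 0.13, and -0.44 without naive replicate 1). Mid1, an X-linked microtubule-associated ubiquitin ligase, was at 3.19, 2.58, 4.98 and 4.97 CPM against 0.837 to 3.11 CPM, with 6 of 7 below (log2 -1.21 ± 0.36). Nptx1, a secreted pentraxin of neurons, was at 2.58 to 5.26 CPM against 1.4 to 2.75 CPM, with 6 of 7 below (log2 -0.89 ± 0.28). Srcap, a chromatin remodelling ATPase, was at 1.49 to 3.52 CPM against 0.223 to 2.62 CPM (log2 -1.43 ± 0.49). Among the higher genes of the rule, Prr18, which encodes a proline-rich protein, was at 0.282, 0.496, 0.586 and 0.382 CPM and ran from 0.834 through 1.12 to 1.64 CPM. Its groups did not overlap (log2 1.46 ± 0.32).

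Leaving out naive replicate 1 changed the picture for the tissue layers. With all 4 unchallenged libraries, 1 of 19 smooth muscle genes had a positive log2 fold change (median -0.34), and without naive replicate 1 all 19 did (median 0.73). Myh11, the smooth muscle myosin heavy chain, was at 1580 CPM in naive replicate 1, at 369, 264 and 159 CPM in the other unchallenged libraries and at 159 to 657 CPM after challenge. Its log2 fold change went from -0.62 ± 0.57 to 0.72 ± 0.48. Enteric neuron and glia genes went from 0 of 20 positive (3 with an unadjusted p under 0.05: Nos1, Syt1 and Ret, against 0.768% of all genes) to 17 of 20, and their median from -0.64 to 0.32. Nos1, the neuronal nitric oxide synthase, was at 13.2 CPM in naive replicate 1 and at 1.11 to 4.37 CPM in the other 10 libraries. Interstitial cell of Cajal genes went from 0 of 7 to 7 of 7 positive, and endothelial genes from 0 of 15 to 13 of 15.

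Lists of absorptive enterocyte function moved downward instead. Among 22 genes of absorptive enterocytes, 10 were on the positive side with all libraries (median -0.02), and 0 were without naive replicate 1 (median -0.51), where 4 had an unadjusted p under 0.05, all lower, against 3.6% of all genes. Alpi, the brush border alkaline phosphatase, was at 179 CPM in naive replicate 1, at 1070, 1240 and 1650 CPM in the other unchallenged libraries and ran from 612 through 781 to 1440 CPM after challenge (log2 -0.31 ± 0.49, then -0.79 ± 0.23). Apart from day 5 replicate 3, at 1440 CPM, every challenged library was then below the 3 unchallenged ones. Without naive replicate 1, 6 of 24 conjugating enzymes of detoxification had an unadjusted p under 0.05, all lower (3.6% of all genes). Of 19 cytochrome P450 genes 3 did, all lower, against the same share. With all 11 libraries, 0 members of either list had an unadjusted p under 0.05. Ugt1a1, which conjugates bilirubin, was at 56.9 CPM in naive replicate 1, at 160 to 194 CPM in the other unchallenged libraries and at 75.3 to 119 CPM after challenge (log2 -0.55 ± 0.29, then -0.90 ± 0.18). The members of each list share the same libraries, and a part of differing tissue composition in these values was not tested.

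Genes of T cells and intraepithelial lymphocytes had 0 of 23 members with an unadjusted p under 0.05 with all libraries (median -0.22), and 8 of 24 without naive replicate 1, all lower (median -0.56), against 3.6% of all genes. Gzmb, the cytotoxic granzyme of intraepithelial lymphocytes, was at 0.94 CPM in naive replicate 1, 23.4, 26.3 and 47.8 CPM in the others and 14.5 to 31 CPM after challenge (log2 -0.24 ± 0.60, then -0.74 ± 0.20). Its challenged range overlapped the unchallenged one even without that library. Cd8a, Cd3g and the gamma delta receptor constant genes Trdc and Tcrg-C1 were among the 8. The 25 genes listed summed to 62.5 and 150.5 CPM in naive and 201.7 and 360.7 CPM in immunized libraries. After challenge they summed to 127.5 to 222.8 CPM, so only immunized replicate 2 lay above that range. Proliferation genes had positive log2 fold changes in all 23 of 23 without naive replicate 1 (median 0.19), next to 16 of 23 with it (median 0.05). Without it 1 member was higher at an unadjusted p under 0.05 (3.48% of all genes). Red blood cell genes had 4 of 5 members higher at an unadjusted p under 0.05 without it (3.48% of all genes), and a part of blood content in other values was not tested.

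**Figure D4:**
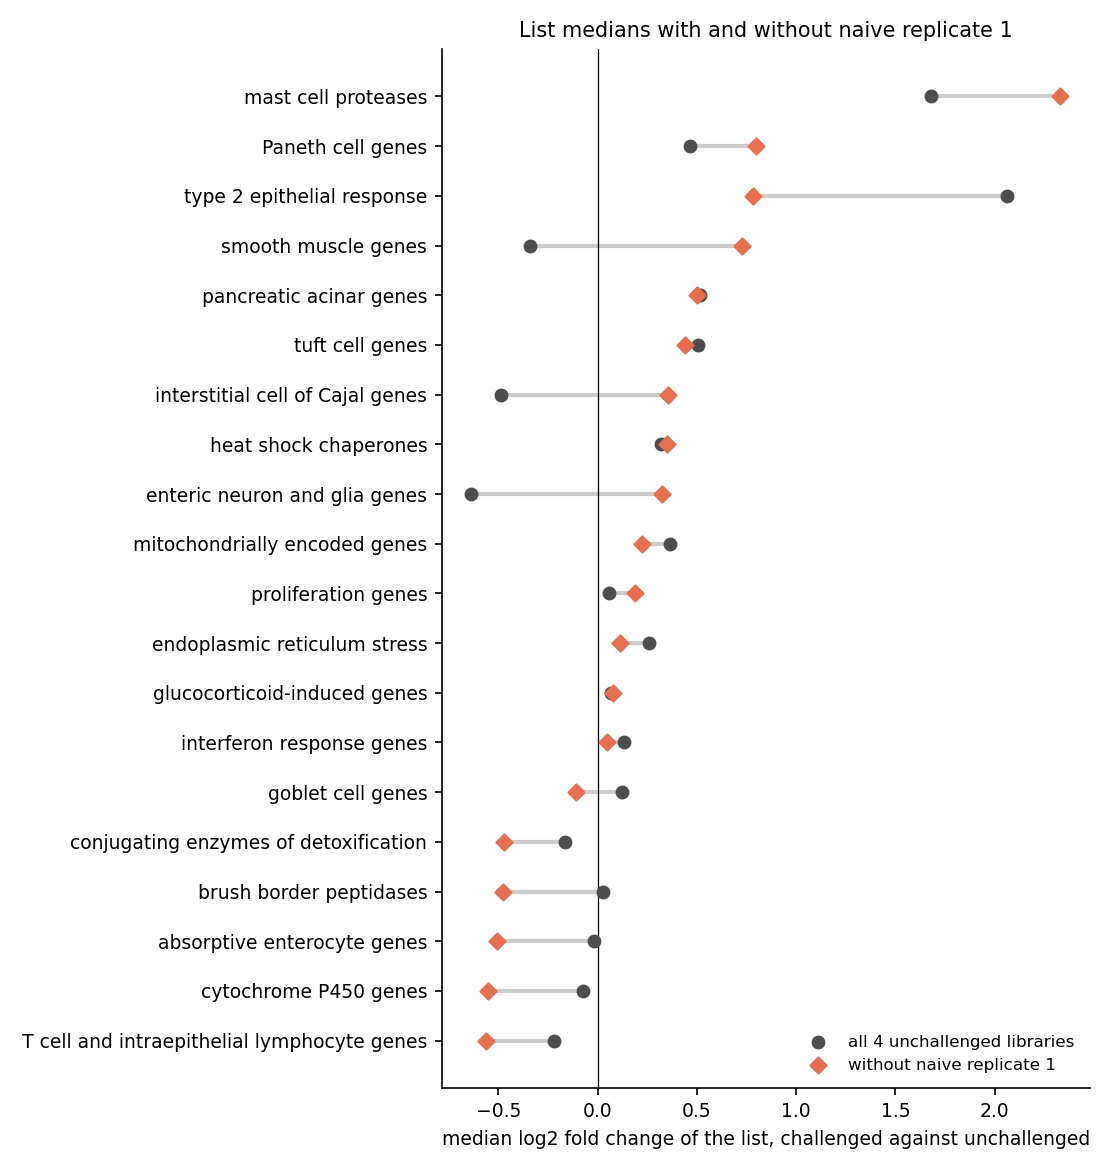
Median log2 fold change (x axis, challenged against unchallenged) of 20 gene lists (y axis), with all 4 unchallenged libraries (grey circles) and without naive replicate 1 (orange diamonds). Smooth muscle genes move from -0.34 to 0.73 and absorptive enterocyte genes from -0.02 to -0.51, while heat shock chaperones lie at 0.32 and 0.35.

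**Figure D5:**
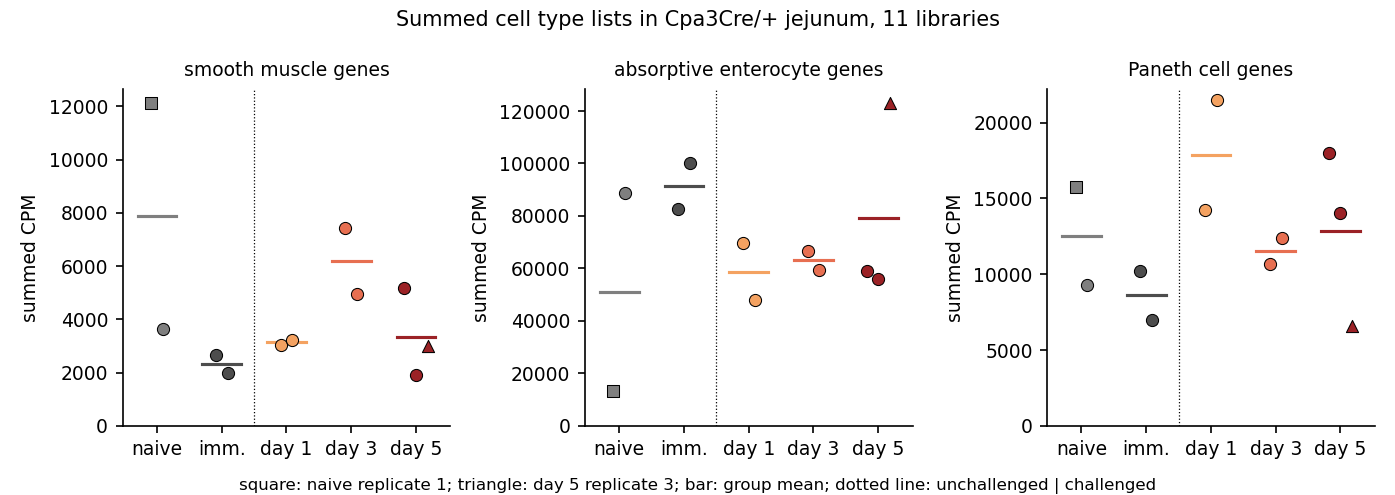
Summed CPM (y axis, starting at 0) of smooth muscle, absorptive enterocyte and Paneth cell genes in the 11 Cpa3Cre/+ libraries by state (x axis; imm., immunized). Naive replicate 1 (square) has the highest muscle sum, 12140 CPM, and the lowest enterocyte sum, 13180 CPM, and day 5 replicate 3 (triangle) the highest enterocyte sum, 122900 CPM.

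The 3 challenge days were also set against the same 4 unchallenged libraries in 1 model of 16597 genes, so the 3 comparisons share their controls. On day 1, edgeR called 0 genes, 116 were higher and 33 lower at an unadjusted p under 0.05 (0.699% and 0.199%), and DESeq2 called 0. On day 3, edgeR called 0, with 83 higher and 61 lower (0.5% and 0.368%), and DESeq2 called 2 (0.0121%), Mcpt1 and Fkbp5. On day 5, edgeR called 0, with 298 higher and 628 lower (1.8% and 3.78%), and DESeq2 called 16 higher (0.0964%) and 5 lower (0.0301%). The log2 fold changes of Mcpt1 were 1.64 ± 0.40, 2.46 ± 0.39 and 3.17 ± 0.40 on days 1, 3 and 5. Those of Ang4 were 2.54 ± 0.67, 1.49 ± 0.68 and 3.19 ± 0.71. Leaving out naive replicate 1 brought Mcpt1 and Mcpt2 past the threshold on day 5 (edgeR adjusted p = 0.0152 and 0.0194). Leaving out day 5 replicate 3, the challenged library with the lowest Ang4 value, brought Ang4 past it (edgeR adjusted p = 0.0319). Of 11 fits that each left out 1 library, only these 2 held a called gene on day 5.

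The genes called by DESeq2 on day 5 included Mcpt1, Mcpt2, Mcpt4 and Ang4, and several epithelial genes. St3gal4, a sialyltransferase, was at 14.1, 25.4, 8.72 and 12.8 CPM in unchallenged libraries, at 15.2 to 29.9 CPM on days 1 and 3, and at 135, 142 and 72.1 CPM on day 5. The 3 day 5 libraries lay above all 8 others (log2 2.79 ± 0.47, DESeq2 adjusted p = 2.07e-05). Duox2, which makes hydrogen peroxide at the epithelial surface, was at 7.61 to 55.7 CPM in unchallenged libraries and 386, 397 and 86.2 CPM on day 5 (DESeq2 adjusted p = 4.03e-04), and its maturation factor Duoxa2 was called too. Dtx1, a regulator of Notch signalling, was lower, at 3.97 to 11 CPM in unchallenged libraries and 1.71, 2.07 and 2.97 CPM on day 5 (log2 -2.06 ± 0.39, DESeq2 adjusted p = 9.77e-04). Day 5 held only females, and the sex term of the model rested on the other states.

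Bhlha15, the secretory cell transcription factor Mist1, was at 7.34 to 8.87 CPM in unchallenged libraries, at 18.2 and 22.9 CPM on day 1 and at 4.17 to 11.7 CPM later (day 1 log2 1.34 ± 0.34, edgeR adjusted p = 1). On day 3 the steroid-responsive genes led with Mcpt1: Fkbp5 at 139 and 29.3 CPM, and the transcription factor Zbtb16 at 9.14 and 2.98 CPM against 0.659 to 2.54 CPM in unchallenged libraries. In both genes day 3 replicate 1 was several times above day 3 replicate 2. Insig1, a sterol-regulated protein of the endoplasmic reticulum, was at 35.8 and 44.2 CPM on day 3 against 51 to 66.5 CPM in unchallenged libraries, and these were its lowest values among the 11 libraries.

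Whether these responses differed from those of Cpa3+/+ mice was tested with an interaction term over all 23 libraries, naive replicate 1 included. The unchallenged Cpa3+/+ libraries were 3 naive (2 females, 1 male) and 2 immunized (2 females). The challenged ones were 3 on day 1, 2 on day 3 and 2 on day 5, all female. The mix of days and sexes thus differed between genotypes, and its part in the differences was not tested. Leaving out each of the 23 libraries in turn gave 0 called genes. Of 16466 genes, edgeR called 0 (0%) and DESeq2 0, while 41 genes with a more positive response in Cpa3Cre/+ (0.249%) and 51 with a more negative one (0.31%) had an unadjusted edgeR p under 0.05. With factors over all 23 libraries, Mcpt1 was at 8.08 to 54.8 CPM in 5 unchallenged and 28.7 to 397 CPM in 7 challenged Cpa3+/+ libraries. The Cpa3Cre/+ ranges were 4.34 to 9.75 and 12.3 to 67.5 CPM, so the challenged ranges overlapped. The response on the log2 scale was 2.73 in Cpa3+/+ and 2.62 in Cpa3Cre/+. The difference was -0.11 (95% interval -1.94 to 1.71, edgeR adjusted p = 1), an interval too wide to show that the responses are alike. Cpa3 was at 0.824 to 4.14 and 1.81 to 22.1 CPM in Cpa3+/+ libraries, and 0.0997 to 1.03 and 0.227 to 1.5 CPM in Cpa3Cre/+ libraries. Its response differed by -0.92 (95% interval -2.87 to 1.04).

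Ang4 and Retnla had higher point estimates of the response in Cpa3Cre/+ mice, and neither difference passed the test. For Ang4 the response was 1.07 in Cpa3+/+ and 2.49 in Cpa3Cre/+ mice, a difference of 1.42 (95% interval -0.21 to 3.05, edgeR adjusted p = 1). Its unchallenged levels were 32.4 to 182 CPM in Cpa3+/+ and 59.2 to 85.2 CPM in Cpa3Cre/+ libraries. Challenged Cpa3+/+ libraries ran from 46.9 CPM, in day 1 replicate 2, to 614 CPM, and challenged Cpa3Cre/+ libraries from 89.2 to 1070 CPM. Retnla did not exceed 0.648 CPM in any Cpa3+/+ library and reached 4.11 CPM in Cpa3Cre/+ (difference 2.25, 95% interval -0.74 to 5.23). Ccl8 reached 1.8 CPM in Cpa3+/+ and 4.77 CPM in Cpa3Cre/+ libraries (difference 0.93, 95% interval -1.14 to 3.01). None of these differences was called.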

How the data were processed

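RNA was taken from whole jejunum with fat and Peyer's patches removed, and stranded libraries were made, per the labels' protocols. The authors deposited 1 table of read counts, not normalized, with 1 row for each Ensembl gene. STAR alignment to mm10 (GRCm38) and featureCounts from Subread 1.5.1 are named per the submitters' processing notes. The strand setting and the STAR version are not given in the sources used here, so antisense and near-identical genes can share reads.

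Of 55487 genes, 55227 had a symbol from GENCODE vM21 or the reference name table; the remaining 260 held 0.00137% of counts. Genes passing filterByExpr (minimum count 10) were tested with edgeR 4.0.16 (R 4.3.3; TMM, robust quasi-likelihood F test, sex as covariate, 8 residual degrees of freedom, biological coefficient of variation 34.3%, or 27.8% without naive replicate 1), two-sided, with Benjamini-Hochberg adjustment over all genes and a threshold of 0.05. DESeq2 1.42.0 was an alternative. Standard errors were computed from the fold change and its F statistic and are approximate. The tests were also run on simulated counts with 200 genes changed, drawn with the fitted spread of each gene. That simulation held no outlying library such as naive replicate 1. Its rates of recovery are not reported here, so it gives no measure of power for these data.

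The labels do not state that each library is a separate animal, and p-values reflect only how these libraries vary. Library pairs of a group differed by more than sampling noise, so none was merged.

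The members and the 50 gene lists were chosen with earlier results of these data known. Named genes were Cpa3, Mcpt1, Mcpt2 and Kit, the 8 with the smallest p per direction at a mean of at least 1 CPM in a group, the 3 with the smallest p per day and direction, and up to 4 per list, leaving out predicted genes, Xist, Y-linked genes and antigen receptor segments. Cma1, Fcer1a, Mcpt9, Il13, Rnase2a, Ang5, Gsdmc4, Pla2g4c, Gzmb, Cd8a, Cd3g, Trdc, Muc2, Pou2f3, Dclk1 and the genes called by DESeq2 alone were chosen after their values were seen. Not every gene named by the rule is reported here.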

Additional observations from a re-analysis of the deposited data

Results flagged for a closer look

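Of 141 groups of values (named genes and 7 list sums, within the 4 unchallenged or the 7 challenged libraries), 23 held a library set apart from the others of its class by Dixon's gap test at 95%. Chance alone sets apart about 1 group in 20 where values are independent and normally distributed. CPM values were not transformed here and several of these genes move together, so 23 of 141 cannot be measured against that rate. Naive replicate 1 accounted for 9 of the 23. It was highest of the unchallenged libraries for Myh11 (1580 CPM), Mylk (1900 CPM), Nos1 (13.2 CPM), Ret (21.2 CPM), Kit (31.3 CPM), Tshz1 (40.4 CPM), Cma1 (0.752 CPM) and the smooth muscle sum (12140 CPM), and lowest for the peptidase Mme (326 CPM). Naive replicate 2 was highest of the unchallenged libraries for Gsdmc2 (64.1 CPM), Gsdmc4 (62.4 CPM), Pla2g4c (147 CPM), Retnlb (0.794 CPM) and Tsc22d3 (96 CPM).

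Day 5 replicate 3 was highest of the challenged libraries for Alpi (1440 CPM), Isx (165 CPM), Cyp2c68 (70.5 CPM), the absorptive enterocyte sum (122900 CPM) and the pancreatic acinar sum (1139 CPM). Most of that acinar sum was Reg1, at 1080 CPM with factors over all 23 libraries. Day 5 replicate 2 was highest for Hspa1a (16.9 CPM), and day 3 replicate 1 for Fkbp5 (139 CPM). The summed B cell follicle and germinal centre genes were highest in immunized replicate 2 (226.1 CPM) among the unchallenged and in day 1 replicate 2 (163.2 CPM) among the challenged libraries. What set these libraries apart was not tested.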

How the results depend on the processing

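The labels give the groups the same replicate numbers. Of 20 same-number correlations of deviations from the group mean, 2 exceeded 0.1 (-0.356 to 0.604). Between groups of 2 libraries, both numbers give the same correlation by construction. These values therefore cannot decide whether the numbers pair libraries, and the main comparison used no pairing. With the replicate block edgeR called 0 genes in the main comparison (167 higher and 60 lower at an unadjusted p under 0.05), on days 1, 3 and 5, and between genotypes, and Kit was at 0.082. In the main comparison DESeq2 called 3 genes, the immunized libraries alone gave 1 (Ighv1-20), and leaving out single libraries 0 to 1. DESeq2 called 2 genes on day 3 and 21 on day 5. With no filter on low counts edgeR called 4 on day 3 and 5 on day 5, and leaving out single libraries gave 0 to 2 on day 5. Unadjusted p-values under 0.05 (133 higher, 121 lower) became 300 and 369 with no filter, 125 and 598 in females only, 498 and 494 with immunized libraries alone, 196 and 318 in a fit of all 23 libraries, and 1221 and 1147 without naive replicate 1 and day 5 replicate 3, an alternative chosen after seeing the data. The causes were not tested.

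Without naive replicate 1, 16 of 49 list medians changed sign and 6 moved by more than their spread: mast cell proteases 2.33, goblet cells -0.109, stem cells 0.367, enteric neurons and glia 0.323, endothelium 0.325 and adipocytes 0.522. Of 59 named genes, 47 kept their sign in every alternative. In females only, Alpi (0.018), Cyp2c68 (0.28) and Mme (0.33) turned positive. Gzmb was at 0.0971 with 1 mean per state. In the fit of all 23 libraries Gzmb was at 0.22 and Tmprss15 at 0.44. With immunized libraries alone, Kit (0.32), Myh11 (0.93), Mylk (0.40), Nos1 (0.12) and Syt1 (0.14) turned positive. There Mcpt1 was at 3.01 ± 0.56, Mcpt2 at 3.39 ± 0.70, Ang4 at 2.65 ± 0.87 and Gsdmc2 at 5.59 ± 1.24, none of them called. Without both libraries named above, Kit (0.46), Myh11 (0.78), Mylk (0.33) and Nos1 (0.15) were positive and Pla2g4c was at -0.053. Leaving out single libraries gave ranges of -0.79 to 0.30 for Alpi, -0.74 to 0.83 for Gzmb, -0.74 to 0.21 for Isx, -0.22 to 0.39 for Kit, -0.99 to 0.72 for Myh11, -0.81 to 0.295 for Mylk, -1.49 to 0.12 for Nos1, -0.078 to 5.2 for Pla2g4c and -1.3 to 0.50 for Tmprss15. Genes under about 10 counts in several or all libraries, such as Mcpt4, Il13 and Rnase2a, are limited by depth.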

Other observations

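Macrophage and dendritic cell genes had positive log2 fold changes in 21 of 23 members (median 0.14), and in 22 of 23 without naive replicate 1 (median 0.49). In each, 1 member was higher at an unadjusted p under 0.05 (0.844% and 3.48% of all genes). All 26 nuclear respiratory chain genes were on the positive side with every library (median 0.19), and 7 of 26 without naive replicate 1 (median -0.03). B cell follicle and germinal centre genes had 15 of 17 members on the negative side in both comparisons (medians -0.56 and -0.66), with 0 at an unadjusted p under 0.05. All 32 interferon response genes were tested, 0 had an unadjusted p under 0.05 in either comparison, and the median was 0.14.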
